A study of Mus musculus with 4 samples.

Results

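T cells that carried 2 alpha chains or 2 beta chains of the T cell receptor (TCR) were taken from tumours of MC38, a mouse colon carcinoma cell line, grown in C57BL/6J mice. The tumours came from wild-type (WT) MC38 cells or from MC38 cells in which p53 was knocked out by CRISPR-Cas9 (p53 KO), and the mice of both groups received anti-PD-1, an antibody against an inhibitory receptor of T cells. The knockout is in the tumour cells, and the T cells are those of the host. Cells of whole tumours were captured in droplets by 10x Chromium 5' chemistry, where a barcode marks the droplet and a unique molecular identifier (UMI) marks each captured RNA copy. A cell is here a barcode that the authors kept. Each genotype has 1 library of receptor chains, and their gene expression counterparts were not used here. How many mice each library pools is not stated in the sources at hand.

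Cells were chosen by their number of chains: a cell was taken if it held 2 or more productive alpha chains (locus TRA) or 2 or more productive beta chains (locus TRB). Of 408 cells in the WT library 43 met this, and of 392 in the p53 KO library 49, together 92 of 800. There were 34 dual alpha cells in WT and 36 in p53 KO, and 14 and 22 dual beta cells. Both groups include 5 WT and 9 p53 KO cells that held 2 alpha and 2 beta chains, and no cell held 3 chains of a locus. The number of chains chose these cells, so it is given as a description only. Since each genotype has 1 library, WT and p53 KO values are set side by side without a test or replicates. Intervals are exact 95% binomial (Clopper-Pearson) intervals for shares and 95% order-statistic intervals for medians, and both cover counting error only.

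Each T cell builds its receptor by joining a V to a J segment for the alpha chain, and a V, a D and a J segment for the beta chain. Rearrangement at the beta locus is held to a single productive allele in most T cells, which is called allelic exclusion. The alpha locus is much less strict: both alleles rearrange at the same time in the thymus, and each can be rearranged again to J segments ever farther from the V segments until the cell is selected. T cells with 2 productive alpha chains are therefore a known part of the normal repertoire, whereas those with 2 productive beta chains are rare. Droplets that catch 2 cells, or a cell with RNA from another, also give a barcode with extra chains. No doublet caller was run on these libraries.

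The chain pairs that were found together in more than 1 cell are shown first, because a clone of T cells with 2 chains of a locus would leave such pairs. Whether each pair came from such a clone was not tested. The lines give the CDR3, the loop made at the junction, as nucleotides from the deposited contigs. Capitals mark the bases that were shared neither with most other CDR3s of the same V gene (or V family, where the gene had too few) nor with most of the same J gene, so they stand at and around the junction. In TRAV2 too few other chains were found for this comparison, so that its V bases are in capitals too.
WT pair 1, TRAV8D-1 with TRAJ13: tgtgcCCattctgggacttaccagaggttt
WT pair 1, TRAV14D-1 with TRAJ9: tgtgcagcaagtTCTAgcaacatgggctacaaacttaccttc
WT pair 2, TRAV8D-2 with TRAJ31: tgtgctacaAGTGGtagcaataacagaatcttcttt
WT pair 2, TRAV7N-4 with TRAJ26: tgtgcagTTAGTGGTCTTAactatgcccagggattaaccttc
WT beta pair, TRBV17 with TRBJ2-2: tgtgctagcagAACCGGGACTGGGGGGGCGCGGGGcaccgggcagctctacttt
WT beta pair, TRBV19 with TRBJ1-3: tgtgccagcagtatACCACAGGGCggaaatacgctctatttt
p53 KO pair 1, TRAV2 with TRAJ7: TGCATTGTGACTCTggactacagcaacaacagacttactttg
p53 KO pair 1, TRAV11 with TRAJ4: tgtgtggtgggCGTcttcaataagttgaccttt
p53 KO pair 2, TRAV7-3 with TRAJ26: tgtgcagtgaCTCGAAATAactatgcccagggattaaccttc
p53 KO pair 2, TRAV12-2 with TRAJ43: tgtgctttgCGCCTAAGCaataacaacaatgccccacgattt
p53 KO pair 3, TRAV1 with TRAJ26: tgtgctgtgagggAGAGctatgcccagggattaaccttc
p53 KO pair 3, TRAV7-1 with TRAJ12: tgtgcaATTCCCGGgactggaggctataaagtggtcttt
p53 KO pair 4, TRAV16N with TRAJ37: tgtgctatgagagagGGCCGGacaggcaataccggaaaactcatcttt
p53 KO pair 4, TRAV9-4 with TRAJ21: tgtgctctttacttc

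Each of these 7 pairs was found together in 2 cells, and for 5 of them other cells held just 1 of the chains. In WT pair 1 (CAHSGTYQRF and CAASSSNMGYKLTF) the TRAV14D-1 chain had 3 and 5 UMIs and the TRAV8D-1 chain 3 and 3, and both cells held the same beta chain, TRBV3 with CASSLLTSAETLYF. Another WT cell held the TRAV14D-1 chain alone, with 4 UMIs and no beta chain. In WT pair 2 (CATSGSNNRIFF and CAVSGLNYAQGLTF) the TRAV8D-2 chain had 9 and 19 UMIs and the TRAV7N-4 chain 3 and 7, and both cells held TRBV2 with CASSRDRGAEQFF. A further cell held the TRAV8D-2 chain alone, with 9 UMIs. In both WT alpha pairs, the chain that was also found alone was the one with more UMIs or as many.

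In p53 KO pair 1 (CIVTLDYSNNRLTL and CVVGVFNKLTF) the TRAV2 chain had 6 and 4 UMIs and the TRAV11 chain 3 and 2. Both cells held the same TRBV16 beta chain, with 10 and 9 UMIs, and neither alpha chain was found in any other cell. The TRAV11 chain used TRAJ4 and is thus not the chain of invariant natural killer T (NKT) cells, which joins TRAV11 to TRAJ18. In p53 KO pair 2 the TRAV7-3 chain (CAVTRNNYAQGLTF) was found in 5 cells, all with the beta chain TRBV26 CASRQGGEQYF. The TRAV12-2 chain (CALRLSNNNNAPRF) was found in 2 of these 5 cells, where it had 8 UMIs against 14 for TRAV7-3 in the first and 6 against 4 in the second. The other 3 cells had 6, 4 and 3 UMIs of TRAV7-3 and none of TRAV12-2, so the order of the chains was not the same in every cell of this clone.

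In p53 KO pair 3 (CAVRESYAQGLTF and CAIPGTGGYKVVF) the TRAV1 chain had 3 UMIs in each cell, and the TRAV7-1 chain had 2 and 5. Both cells held TRBV19 with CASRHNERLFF, and the first also held a TRBV17 chain with 9 UMIs, which makes it a cell with 2 alpha and 2 beta chains. In p53 KO pair 4 the 2 cells had no beta chain in common. The TRAV16N chain had 4 UMIs in the cell with TRBV1 (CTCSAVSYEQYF) and 3 in the cell with a TRBV3 chain, and the TRAV9-4 chain, whose CDR3 of 5 residues (CALYF) is the shortest alpha CDR3 of any dual cell, had 4 and 2. The TRAV16N chain was found again, with 4 UMIs, in a cell of 2 alpha and 2 beta chains that held the same TRBV3 chain. In this pair the partner chain therefore did not follow the alpha chains as it did in the other 6 pairs.

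The WT beta pair was the only beta pair found in more than 1 cell. Its TRBV17 chain was in 6 cells, 5 of which had the alpha chain TRAV7D-2 with TRAJ18 (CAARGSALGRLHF). Its TRBV19 chain (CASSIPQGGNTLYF) was in 2 of these 5 cells, with 6 UMIs against 3 for TRBV17 in the first and 3 against 6 in the second. The other 4 TRBV17 cells had 4, 7, 7 and 21 UMIs of TRBV17 and none of TRBV19. The plot of UMIs in the cells of each recurring pair shows these values cell by cell.

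**Figure D1:**
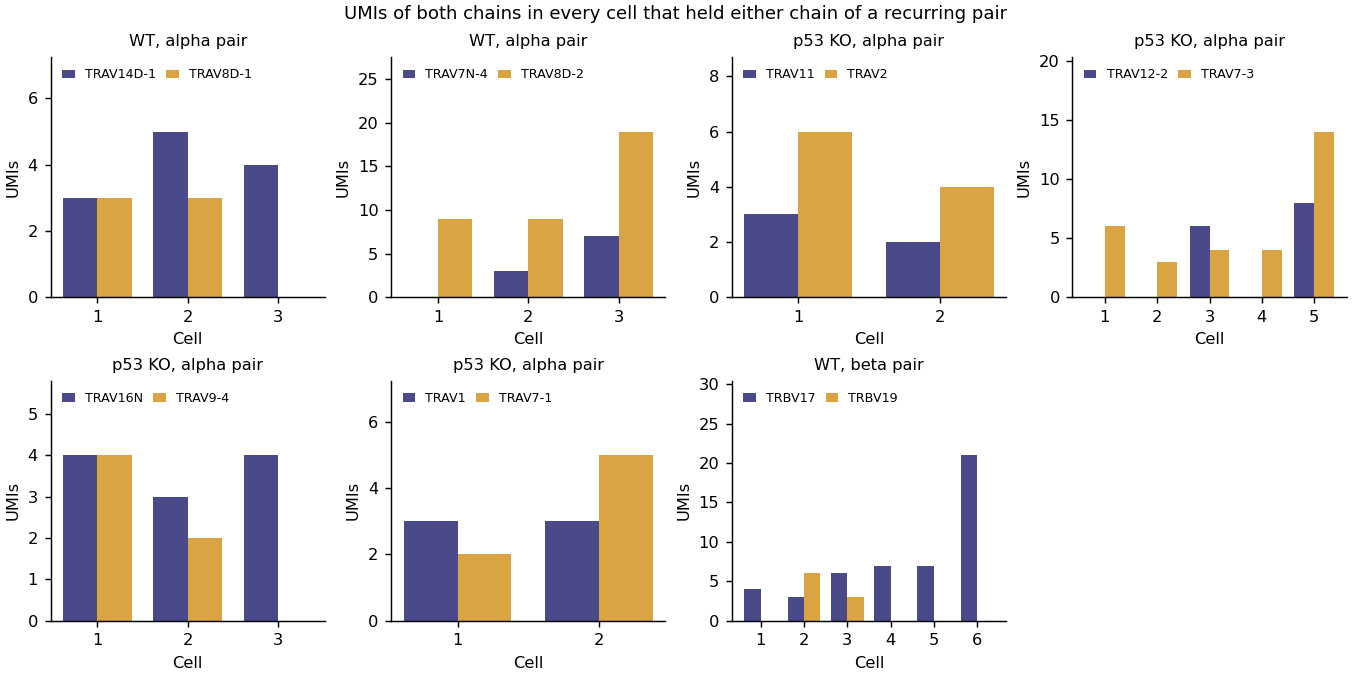
UMIs (y axis) of both chains of each recurring pair in every cell that held either chain (x axis, cell number), for 2 WT alpha pairs, 4 p53 KO alpha pairs and 1 WT beta pair; the bars are single cells, not means. Each pair stands together in 2 cells, and in the p53 KO pairs of TRAV7-3 and TRAV12-2 and of TRAV1 and TRAV7-1 and in the WT beta pair the chain with more UMIs differs between those 2 cells.

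Dual alpha cells were 34 of the 359 WT cells with an alpha chain (9.47%, interval 6.65 to 13.0) and 36 of 300 in p53 KO (12.0%, 8.55 to 16.2). With each clonotype of the deposited lists counted once in place of its cells, they were 32 of 251 (12.7%) and 34 of 184 (18.5%). A clonotype counted as dual if any of its cells was. In p53 KO this took the dual count from 36 to 34 and the total from 300 to 184, so the share rose through the smaller total. Dual beta cells were 14 of 326 WT cells with a beta chain (4.29%, 2.37 to 7.10) and 22 of 351 in p53 KO (6.27%, 3.97 to 9.34). The intervals of WT and p53 KO overlap for both loci. A count of 1 chain put 325 WT and 264 p53 KO cells with an alpha chain just outside the dual alpha group, and 312 and 329 cells just outside the dual beta group. The cells just inside, with 1 UMI on their second chain, numbered 2 of 34 and 7 of 36 for alpha and 1 of 14 and 0 of 22 for beta. All dual cells also held a chain of the other locus. Among cells without a beta chain, 0 of 82 in WT and 0 of 41 in p53 KO had 2 alpha chains (a count of 0 allows up to 3.66% and 7.32%), and among cells without an alpha chain 0 of 49 and 0 of 92 had 2 beta chains (up to 6.12% and 3.26%).

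The share of cells with 2 alpha chains was higher among cells with 2 beta chains. Of the dual beta cells, 5 of 14 in WT (35.7%, 12.8 to 64.9) and 9 of 22 in p53 KO (40.9%, 20.7 to 63.6) also had 2 alpha chains. Of the paired cells with 1 beta chain, 29 of 263 (11.03%, 7.51 to 15.5) and 27 of 237 (11.4%, 7.64 to 16.1) had 2. A paired cell is one with chains of both loci. These intervals lie apart in p53 KO and overlap in WT.

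The share of dual alpha cells did not follow the depth of the beta chain in 1 direction. In WT it was 8 of 108 cells with 1 to 3 UMIs on the only beta chain (7.41%, 3.25 to 14.1), 11 of 68 with 4 to 6 (16.2%, 8.36 to 27.1) and 10 of 87 with 7 or more (11.5%, 5.65 to 20.1). In p53 KO it was 10 of 64 (15.6%, 7.76 to 26.9), 4 of 66 (6.06%, 1.68 to 14.8) and 13 of 107 (12.1%, 6.63 to 19.9). The order of the bins differs between the libraries and the intervals overlap.

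The share of dual alpha cells was also set beside the size of the clone. A beta chain found in 5 or more cells marked 23 paired WT cells, of which 0 had 2 alpha chains (a count of 0 allows up to 13.0%), and 72 paired p53 KO cells, of which 2 had 2 (2.78%, 0.338 to 9.68). These 2 are the cells of the TRAV7-3 and TRAV12-2 pair. With a beta chain found in 2 to 4 cells the share was 9 of 90 in WT (10%, 4.68 to 18.1) and 13 of 63 in p53 KO (20.6%, 11.5 to 32.7), and with one found in a single cell 20 of 150 (13.3%, 8.34 to 19.8) and 12 of 102 (11.8%, 6.23 to 19.6). The share did not follow clone size in p53 KO, where the clones of 2 to 4 cells had the highest value and those of 5 or more the lowest, with intervals apart. Cells of a clone are not independent, and the bounds at 2, 4 and 5 cells were set with the data known.

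In about as many dual alpha cells as not, the weaker chain held 40% or more of the alpha UMIs, with 16 of 34 in WT (47.1%, 29.8 to 64.9) and 19 of 36 in p53 KO (52.8%, 35.5 to 69.6). In WT the stronger alpha chain had a median of 7 UMIs (lowest 2, highest 19) and the weaker one 4 (1 to 8), and in p53 KO the medians were 4 (1 to 14) and 3 (1 to 8). The stronger chain is the one with more UMIs, with ties broken by reads. The weaker chain held a median of 37.5% of the alpha UMIs in WT (interval 33.3 to 41.2, lowest 18.2, highest 50) and 40% in p53 KO (35.7 to 40, lowest 20, highest 50). An even split would be 50%, but the weaker of 2 small counts is below it by its definition. Equal UMIs on the 2 chains were counted for 1 of the 34 WT and 7 of the 36 p53 KO cells, and both chains had 3 or more UMIs in 28 of 34 (82.4%, 65.5 to 93.2) and 19 of 36 (52.8%, 35.5 to 69.6).

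The p53 KO library had fewer alpha UMIs in cells with 1 alpha chain too. The only alpha chain of paired cells had a median of 5 UMIs in WT and 4 in p53 KO. The part of this depth in the number of balanced pairs was not tested.

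The UMI share of the weaker chain reached lower values in dual beta cells than in dual alpha cells. The stronger beta chain had a median of 6 UMIs in both libraries (WT 3 to 21, p53 KO 3 to 27), and the weaker one 3.5 (1 to 6) and 4 (2 to 12). The weaker chain held a median of 29.2% of the beta UMIs in WT (18.2 to 46.2, lowest 15.4, highest 50) and 38.7% in p53 KO (30.8 to 44.4, lowest 10, highest 50). A share under 20% was found in 3 of 14 WT and 1 of 22 p53 KO dual beta cells, against 1 of 34 and 0 of 36 dual alpha cells. The intervals of these shares overlap in both libraries. With 1 chain of the other locus, the lowest share in WT was 16% for dual beta and 20% for dual alpha cells. In p53 KO these values were 28.6% and 20%, so there the lower beta values came from cells with 2 alpha chains. The most uneven cell, in p53 KO, had 27 UMIs of TRBV13-3 and 3 of TRBV19, and it held 2 alpha chains as well.

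The following 2 cells were among the non-recurring ones with most UMIs on the weaker chain of their library and locus. A p53 KO cell held TRBV19 with 13 UMIs (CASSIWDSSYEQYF) and TRBV23 with 12 UMIs (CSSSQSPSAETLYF), the highest weaker chain of any dual cell. Its only alpha chain, TRAV6-6 with TRAJ18, had 8 UMIs and was found in 16 cells of the library, 5 of which had a beta chain. These 5 cells, with the dual cell among them, held 5 different beta chains in all, and the most frequent of these chains was in 2 cells. A WT cell held 2 chains of the same V gene, TRAV7D-2, joined to TRAJ37 with 12 UMIs (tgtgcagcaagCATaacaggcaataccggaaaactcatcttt) and to TRAJ13 with 8 UMIs (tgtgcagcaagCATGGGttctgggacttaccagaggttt), beside 20 UMIs of a TRBV10 chain. Capitals have the same meaning as above. Both alpha chains used the same V gene in 2 of the 34 cells from WT and 2 of the 36 from p53 KO. Many mouse V alpha genes have near-identical copies whose names carry a D or N, and reads can be given to either copy; with these letters dropped the counts were the same.

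By median, the stronger and weaker chains of dual cells had similar numbers of reads per molecule. Reads per UMI had a median of 3260 on the stronger and 3576 on the weaker alpha chain in WT, and of 3411 and 3508 in p53 KO. For the beta chains the medians were 2876 and 2534 in WT and 3429 and 3518 in p53 KO. The intervals of the medians overlap in all 4 comparisons. The only chain of paired cells had medians of 3344 in WT and 4492 in p53 KO for alpha, and 4112 and 5386.5 for beta. Its interval lay apart from that of a dual chain only for the weaker WT beta chain (3863 to 4416 against 1586 to 3603). By median, the reads therefore gave a balance close to that of the UMIs. The weaker alpha chain held a median of 37.5% of the reads in WT and 38.2% in p53 KO. For the weaker beta chain these values were 25.5% and 36.9%. Single cells could differ from this. The highest read share of the weaker chain was 78.97% in WT and 70.49% in p53 KO for alpha, and 54.33% and 61.79% for beta. In these cells the chain with fewer UMIs had more reads, so the order of the chains depends on the use of UMIs.

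**Figure D2:**
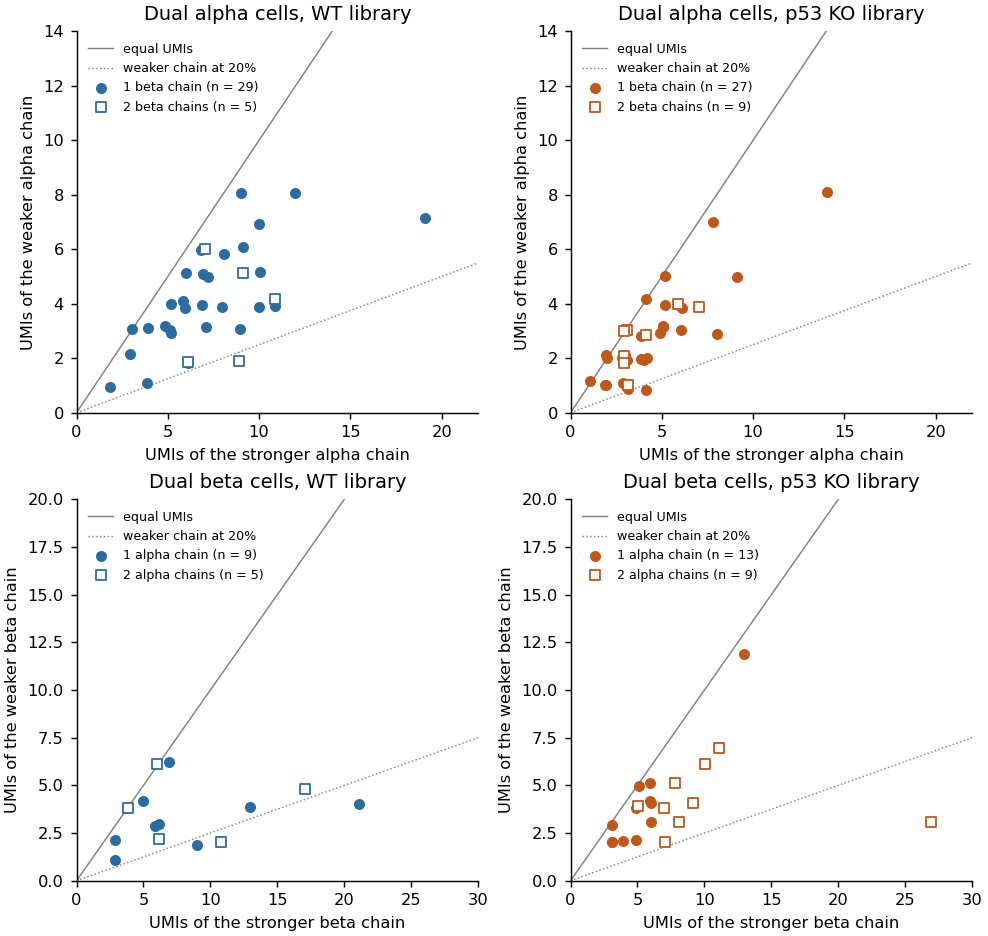
UMIs of the weaker chain (y axis) against those of the stronger chain (x axis) for each dual alpha (top) and dual beta (bottom) cell of the WT (left) and p53 KO (right) library, with points moved by up to 0.2 UMIs so that equal values can be seen. Filled circles are cells with 1 chain of the other locus and open squares those with 2; most alpha cells lie between equal UMIs (solid line) and a share of 20% (dotted line), while 3 WT and 1 p53 KO beta cells lie under the dotted line.

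The chain of the other locus gives a depth that the choice of cells did not use. In WT the only beta chain had a median of 4 UMIs in cells with 1 alpha chain (interval 4 to 4, n = 234 cells) and 5 in cells with 2 (4 to 7, n = 29), and in p53 KO 6 (5 to 7, n = 210) and 6 (3 to 9, n = 27). The only alpha chain had a median of 5 UMIs in WT cells with 1 beta chain (4 to 5) and 5 in those with 2 (3 to 14, n = 9), and 4 (3 to 4) and 5 (1 to 6, n = 13) in p53 KO. In these comparisons the intervals of cells with 1 and with 2 chains overlap.

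The sum over the alpha chains was higher, as it adds 2 chains. It had a median of 11 UMIs in WT cells with 2 alpha chains and 1 beta chain and 7 in p53 KO. Over all chains the median was 9 UMIs in cells with 1 chain of each locus in both libraries. With 2 alpha chains and 1 beta chain the median was 16 UMIs for WT and 15 for p53 KO, and with 1 alpha and 2 beta chains 15 and 13. With 2 of each it was 24 (lowest cell 16, highest 36) and 19 (14 and 40).

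Each chain of a dual cell was then looked up in the other cells of its library, told apart by V gene, J gene and CDR3 nucleotides. The pair recurred in 4 of 34 WT dual alpha cells (11.8%, 3.30 to 27.5) and 8 of 36 in p53 KO (22.2%, 10.1 to 39.2), and 2 and 4 different pairs stood behind these cells. For 6 of the 8 p53 KO cells, and all 4 in WT, the cells of the pair shared a partner chain. Among dual beta cells the pair recurred in 2 of 14 in WT (14.3%, 1.78 to 42.8) and in 0 of 22 in p53 KO, where a count of 0 allows up to 13.6%. Intervals of WT and p53 KO overlap for both loci.

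A chain was counted as known from another clone if it was found in another cell that lacked the second chain of the pair and had a partner chain that the dual cell lacked. This held for 1 of 34 WT dual alpha cells (2.94%, 0.0744 to 15.3) and 13 of 36 in p53 KO (36.1%, 20.8 to 53.8). The 13 cells rested on 9 different chains, so they are not 13 independent events. Being found with another partner does not show that a chain came from that other clone, which was not tested. When the other cell had to share no partner chain at all, the counts were 1 of 34 and 9 of 36 (25%, 12.1 to 42.2), and the intervals of the libraries overlap. Among the dual alpha cells with 1 beta chain, 1 of 29 in WT (3.45%) and 9 of 27 in p53 KO (33.3%) had a known chain. In 5 of these 9 the chain was known only from cells with 2 alpha and 2 beta chains, since without those cells among the ones searched the counts were 1 of 29 and 4 of 27 (14.8%). The p53 KO value was the higher one under each count, but its size depends on shared partners and on whether cells with 4 chains are searched. The restricted counts were chosen after seeing the data. No such share is given here for cells with 1 alpha chain, so the values cannot be read as particular to dual cells. Of the paired cells with 1 beta chain, 23 of 263 in WT and 72 of 237 in p53 KO had one found in 5 or more cells. The part of clone size in these counts was not tested.

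Among dual beta cells a chain was known from another clone in 5 of 14 in WT (35.7%, 12.8 to 64.9) and 5 of 22 in p53 KO (22.7%, 7.82 to 45.4). The 5 WT cells rested on 4 different chains. For 2 of them the chain, TRBV20 with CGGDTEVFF, was known only from the other of these dual cells. With 2 or more UMIs per contig the counts were 3 of 13 in WT and 7 of 22 in p53 KO. With no shared partner chain allowed the counts were 5 of 14 and 1 of 22 (4.55%). Among dual beta cells with 1 alpha chain, and with shared partners allowed, they were 5 of 9 (55.6%) and 1 of 13 (7.69%). Without cells of 4 chains among those searched, the last became 0 of 13 (0%). No share of this kind is given for cells with 1 beta chain either. In beta cells the known chain was the stronger one in 2 and the weaker one in 8 of 36 cells over both libraries, and in alpha cells it was the stronger one in 7 and the weaker one in 7 of 70. In no dual cell were both chains known from other clones. Neither chain was found in any other cell for 15 of 34 WT and 12 of 36 p53 KO dual alpha cells, and for 3 of 14 and 10 of 22 dual beta cells. Most clones were sampled in 1 cell, so a chain not found elsewhere cannot be assigned to either kind.

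**Figure D3:**
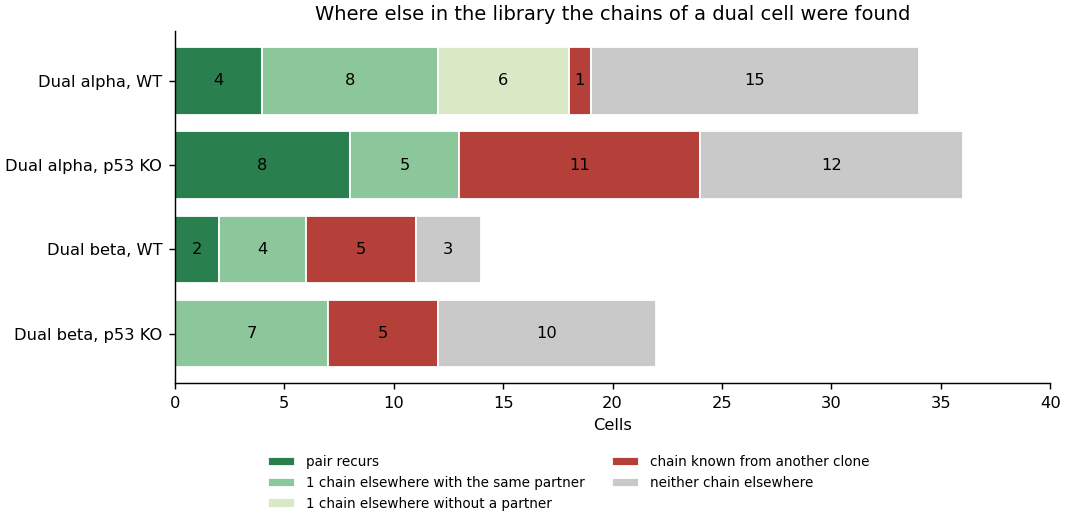
Numbers of dual alpha and dual beta cells (x axis, cells) in the WT and p53 KO library (rows) by where else in the library their chains were found; each cell is in 1 class, with a recurring pair taking priority over the other classes. The p53 KO dual alpha cells hold 11 with a chain known from another clone and no recurring pair, WT 1, and the p53 KO dual beta cells hold no recurring pair.

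The chains counted as known were found in very different numbers of cells. A p53 KO cell with 2 alpha and 2 beta chains held 3 UMIs of the TRAV7D-3 and TRAJ37 chain (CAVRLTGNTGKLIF) of the largest p53 KO clone. That chain was in 31 cells of the library, 28 of them with the same beta chain, which this cell lacked. The TRAV3D-3 and TRAJ23 chain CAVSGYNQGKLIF, picked with its values in view, was the weaker alpha chain of 2 p53 KO cells, with 1 and 4 UMIs, next to different stronger chains and beta chains. The same nucleotide sequence was in 5 cells, of which 4 had a beta chain, with 3 different beta chains among them. In WT the TRBV20 and TRBJ1-1 chain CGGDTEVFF, likewise picked with its values in view, had 2 UMIs in each of 2 dual beta cells that had different alpha chains and different stronger beta chains, and it was in no other cell. Its CDR3 of 9 residues, tgtggGGGGGacacagaagtcttcttt, has 5 bases that were not shared with most chains of its V or J gene.

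Other cells with the same partner chain showed 1 of the 2 chains more often than both. In WT, 7 of the 27 different dual alpha receptors with 1 beta chain had other cells with that beta chain, 10 cells in all. Both alpha chains were found in 2 of these cells, the stronger alone in 2, the weaker alone in 6, and another or no alpha chain in 0. In p53 KO, 13 of 25 had 21 such cells, with both chains in 3, the stronger alone in 2, the weaker alone in 12, another alpha chain in 1 and none in 3. By this count the chain that was seen alone was more often the weaker one of the dual cell. Alone means without the other chain of the pair, and such a cell can hold a further alpha chain. Stronger and weaker were taken from 1 dual cell of each receptor. In the pair of TRAV7-3 and TRAV12-2 the order differed between the 2 dual cells, and TRAV7-3 was alone in 3 other cells. Counted once per receptor, only the weaker chain was seen alone in 3 WT and 7 p53 KO receptors, only the stronger in 1 and 1, and each of them in 1 and 1.

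For dual beta cells with 1 alpha chain, 6 of 8 WT receptors had 25 other cells with that alpha chain. Both beta chains were in 1 of these, the stronger alone in 10, the weaker alone in 5, another beta chain in 2 and none in 7. The WT beta pair of TRBV17 and TRBV19 is among these receptors. Its order differed between its 2 dual cells and was taken from 1 of them, so the split into stronger and weaker depends on that choice. In p53 KO, 7 of 13 receptors had 33 such cells, with both in 0, the stronger alone in 4, the weaker alone in 11, another in 5 and none in 13. The TRAV6-6 and TRAJ18 chain, with 16 cells of which 5 had a beta chain, is among these receptors.

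In some cells with 2 alpha and 2 beta chains, an alpha and beta combination was also found in another cell. This was so for 3 of the 5 cells from WT (60%, 14.7 to 94.7) and 6 of the 9 from p53 KO (66.7%, 29.9 to 92.5). For dual alpha cells with 1 beta chain the counts were 9 of 29 (31.0%, 15.3 to 50.8) and 13 of 27 (48.1%, 28.7 to 68.1). For dual beta cells with 1 alpha chain they were 6 of 9 (66.7%, 29.9 to 92.5) and 6 of 13 (46.2%, 19.2 to 74.9). All these intervals overlap within each library, and a cell with 4 chains has more combinations to match. A WT cell held TRAV14D-2 with 4 UMIs and TRBV15 (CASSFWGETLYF) with 6, a combination found in 5 other cells, and its other chains, TRAV3-3 with 11 UMIs and TRBV13-2 with 2, were in no other cell. A second WT cell held TRAV13-1 with 6 UMIs and TRBV12-2+TRBV13-2 with 4, found together in 2 other cells, beside TRAV9-4 with 2 UMIs and TRBV13-3 with 4, both seen nowhere else. In the last of them, TRAV9N-4 with 2 UMIs and TRBV20 with 11 were found in 1 other cell. In each of these 3 cells 1 complete receptor was known and the remaining alpha and beta chains were not found again.

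In p53 KO, 5 of the 9 cells had a single known combination, but their remaining chains were not always limited to that cell. In 1 of them a remaining chain was the TRAV7D-3 chain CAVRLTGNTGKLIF, found in 31 cells. The cell with 27 UMIs of TRBV13-3 held TRAV16N with TRAJ27 at 4 UMIs, and this combination was in 2 other cells. Another held TRAV16 (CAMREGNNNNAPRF, 3 UMIs) and TRBV13-1 (11 UMIs), found in 1 other cell, beside TRAV17 with 2 UMIs and TRBV1 with 7. In the cell of p53 KO pair 3 both alpha chains were found elsewhere with the same TRBV19 chain, so 2 of its 4 combinations were known. In 2 WT and 3 p53 KO cells no combination was found in another cell. No barcode was found in both libraries.

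The J segments of the 2 alpha chains lay closer together than those of different cells in WT. The J alpha genes are numbered from the far end of the locus towards the V genes and lie on chromosome 14 between 54155005 and 54218842 in mm10, and the distance of a pair is the difference of its J numbers. In WT the median distance was 8.5 segments (interval 5 to 10, lowest 1, highest 29), and alpha chains of different WT cells had a median of 13. In p53 KO it was 12.5 (8 to 16, lowest 2, highest 36), against 14 for different cells. In base pairs the medians were 8885 in WT and 12062 in p53 KO, and 14090 and 14222 for different cells.

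The 2 J genes were 10 or fewer segments apart in 24 of 34 WT cells (70.6%, 52.5 to 84.9), whereas this held for 41.4% of pairs of different WT cells. In p53 KO it was 16 of 36 (44.4%, 27.9 to 61.9) against 40.3%. The pairs of different cells reuse the same cells many times, so these shares carry no interval. The WT interval lies above the share of different cells and the p53 KO interval includes it. The intervals of the 2 libraries overlap, and with 1 library a genotype the difference between them was not tested. A pair with the same J gene on both chains was found in 0 of 70 dual alpha cells (a count of 0 allows up to 4.29%), and in 3.53% and 3.95% of pairs of different cells.

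**Figure D4:**
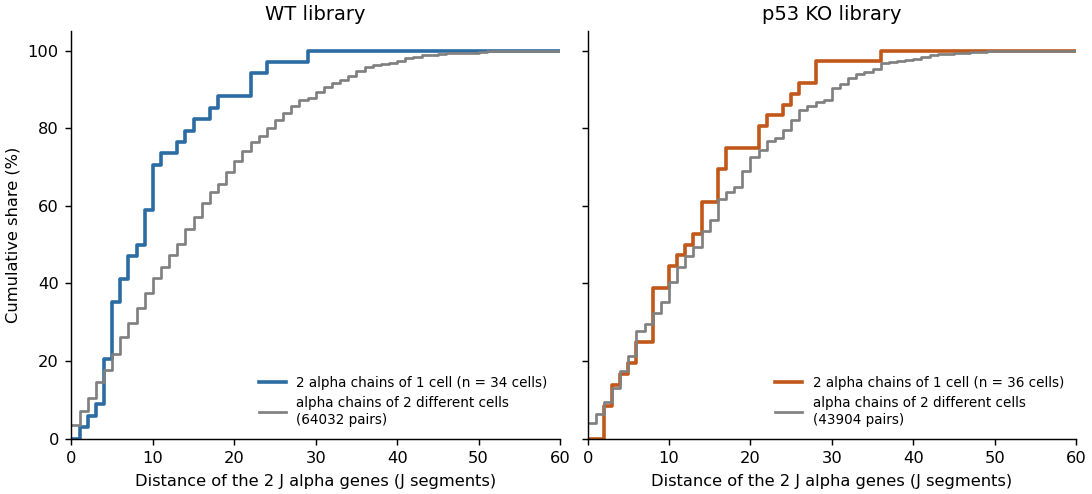
Cumulative share of pairs (y axis, percent) by the distance of their J alpha genes (x axis, J segments) in the WT (left) and p53 KO (right) library; coloured lines are the 2 alpha chains of a cell and grey lines alpha chains of 2 different cells. The WT line runs above the grey line from a distance of 4 on, with 70.6% against 41.4% at 10 segments, and the p53 KO line stays near its grey line, with 44.4% against 40.3%.

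The J genes of cells with 1 beta chain were compared with those of cells with 2. The median distance was 7 segments in 29 WT and 11 in 27 p53 KO dual alpha cells with 1 beta chain, and 11 and 14 in the 5 and 9 cells with 2, with overlapping intervals. J genes 10 or fewer apart were found in 22 of 29 (75.9%, 56.5 to 89.7) and 13 of 27 (48.1%, 28.7 to 68.1) of the former, and in 2 of 5 and 3 of 9 of the latter. In p53 KO the median was 16 segments (10 to 28) in the 11 cells with a chain known from another clone and no recurring pair, and 8 (4 to 21) in the 12 cells whose chains were found nowhere else. These intervals overlap. The recurring pairs were 4 and 5 segments apart in WT, and 3, 14, 16 and 17 in p53 KO, where the distance of 16 belongs to the pair with no shared beta chain.

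Across dual alpha cells the J number of the weaker chain rose with that of the stronger one. Pearson's r was 0.61 and Spearman's rho 0.55 over 34 WT cells, and 0.39 and 0.40 over 36 p53 KO cells. With 1 beta chain only, r and rho were 0.60 and 0.58 in 29 WT cells and 0.49 and 0.45 in 27 p53 KO cells. These are descriptions of cells that share a library and, in part, a clone, and no p is given. The weaker chain used the lower J number in 21 of 34 WT cells (61.8%, 43.6 to 77.8) and 20 of 36 p53 KO cells (55.6%, 38.1 to 72.1).

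**Figure D5:**
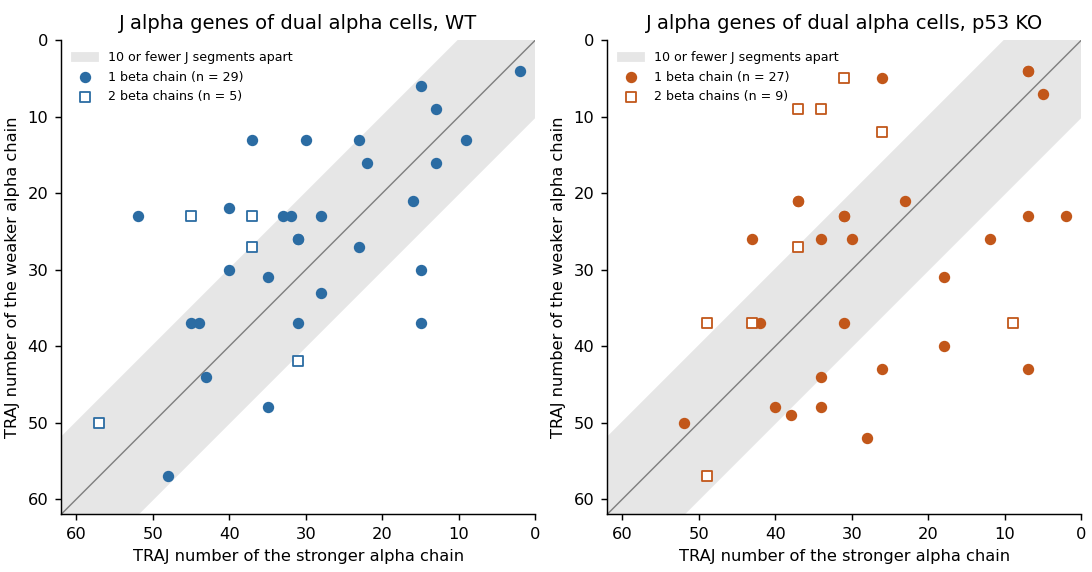
J alpha gene number of the weaker (y axis) against the stronger (x axis) alpha chain of each dual alpha cell, in the WT (left) and p53 KO (right) library; both axes run from high numbers, near the V genes, to low ones, and the grey band holds pairs 10 or fewer segments apart. Filled circles have 1 beta chain and open squares 2, cells of a recurring pair can lie on top of each other, and 24 of 34 WT and 16 of 36 p53 KO cells lie in the band.

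The genes of the dual chains were spread over the loci. Among the 68 WT and 72 p53 KO chains of dual alpha cells the leading V genes were TRAV16N (chromosome 14, 53351090 to 53351621) with 2 and 6 chains, TRAV7D-2 (52683964 to 52684472) with 5 and 3, and TRAV12-2 (53616397 to 53616914) with 1 and 5. The 6 include the TRAV16N chain of p53 KO pair 4 in 3 cells and both chains of a cell with 2 TRAV16N chains. The leading J genes were TRAJ37 (54181518 to 54181577) with 7 and 9 chains, TRAJ23 (54196081 to 54196140) with 8 and 5, and TRAJ31 (54187895 to 54187951) with 5 and 5. Their shares in cells with 1 alpha chain lay inside the intervals of the dual chains in both libraries, except for 2 genes in p53 KO. TRAV16N made up 8.33% of dual chains there (3.12 to 17.3) and 6 of 264 single chains (2.27%, 0.839 to 4.88), and TRAV12-2 6.94% (2.29 to 15.5) and 4 of 264 (1.52%, 0.414 to 3.83). The intervals of dual and single chains overlap for both genes. With the D and N of near-identical copies dropped, the leading V genes were TRAV12-2 with 4 and 7 chains, TRAV16 with 3 and 8 and TRAV3-3 with 3 and 6.

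Among all 93 V and J alpha genes of dual cells, the intervals of dual and single chains lay apart for 1 gene in WT and 2 in p53 KO, all 3 named after their values were known. TRAJ13 was on 6 of 68 WT dual chains (8.82%, 3.31 to 18.2) and 1 of 325 single ones (0.308%, 0.00779 to 1.70). In p53 KO TRAJ26 was on 7 of 72 (9.72%, 3.999 to 19.0) against 3 of 264 (1.14%, 0.235 to 3.28), and TRAV9-4 on 4 of 72 (5.56%, 1.53 to 13.6) against 0 of 264 (up to 1.14%). For the near-identical copy TRAV9N-4 the p53 KO counts were 1 of 72 and 1 of 264, and no such comparison with copies merged is given. Cells that share a chain are counted each time here, and the 6, 7 and 4 chains were 5, 5 and 3 different ones. For the 32 beta genes no intervals lay apart.

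Among the 28 WT and 44 p53 KO chains of dual beta cells the leading V genes, on chromosome 6, were TRBV19 (41178589 to 41179048) with 2 and 6 chains, TRBV3 (41048394 to 41048824) with 3 and 5, and TRBV20 (41188273 to 41188977) with 3 and 4. The leading J genes were TRBJ1-1 (41533864 to 41533911) with 7 and 4 chains, TRBJ2-7 (41543810 to 41543856) with 1 and 9, and TRBJ1-3 (41534323 to 41534372) with 4 and 4. TRBJ1-3 made up 14.3% (4.03 to 32.7) of WT dual beta chains and 9.09% (2.53 to 21.7) of those from p53 KO, and 7 of 312 (2.24%, 0.907 to 4.57) and 7 of 329 (2.13%, 0.860 to 4.33) of the only beta chains. These intervals overlap by a small margin in each library.

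J beta genes lie in 2 clusters, each behind its own D segment, and the share of the first cluster was higher on dual beta chains here. It gave 13 of 28 WT chains of dual beta cells (46.4%, 27.5 to 66.1) and 18 of 44 in p53 KO (40.9%, 26.3 to 56.8), and 81 of 312 (25.96%, 21.2 to 31.2) and 76 of 329 (23.1%, 18.7 to 28.04) of only beta chains. The intervals overlap in both libraries. Cells that share a chain are counted each time, here and for TRBJ1-3, so large clones weigh on the shares of the only beta chains. The 2 chains of a cell used a cluster each in 5 of the 14 cells from WT and 12 of the 22 from p53 KO, the first cluster both times in 4 and 3, and the second in 5 and 7. CDR3 lengths of dual chains had medians of 13 to 14.5 amino acids, and those of single chains 14 for both loci and libraries.

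A single dual cell held an invariant NKT chain. It was a p53 KO cell with TRAV11 and TRAJ18 at 2 UMIs, TRAV12D-3 and TRAJ31 (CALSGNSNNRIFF) at 1 UMI and a TRBV17 beta chain (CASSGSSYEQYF) at 23 UMIs. Each of the 2 alpha chains was in 1 other cell of the library, and the invariant chain stood there with another beta chain. No dual alpha cell held TRAV1 with TRAJ33, the chain of mucosal-associated invariant T cells (0 of 34 and 0 of 36, which allows up to 8.82% and 8.33%). Neither library held contigs of gamma delta receptors or immunoglobulins (0 of 733 and 0 of 709, up to 0.409% and 0.423%), and whether these libraries could hold such chains was not tested.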

How the data were processed

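The authors deposited a list of filtered contigs per TCR library, with reads and UMIs per contig as whole-number counts, not normalized. The submitters' processing notes name Cell Ranger 6.1.1 and the build mm10, with no version of the TCR reference. The libraries held 733 (WT) and 709 (p53 KO) contigs, all productive, on 4280 and 4138 UMIs. Contigs were joined by cell barcode, and samples were grouped by the genotype in their titles. The length column was not analysed.

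Chains were told apart by V gene, J gene and CDR3 nucleotides. Shares have exact (Clopper-Pearson) 95% intervals, and a count of 0 an upper limit of 3 counts. PCR copies were removed only as far as UMIs do so. Coordinates come from RefSeq on GRCm38.p6 (mm10), in which 158 of 159 gene names were found; the combined name TRBV12-2+TRBV13-2 was not.

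The members and lists were chosen with earlier results of these data known. Named by rule were every recurring pair, the 3 other dual cells per library and locus with most UMIs on the weaker chain, up to 5 cells per library with 2 alpha and 2 beta chains, cells with an invariant chain, and the 3 most frequent V and J genes of each locus; some of them are given only within counts. The scripts were tested on simulated data. Alternatives were other definitions of a chain, UMI minimums, paired cells, clonotypes in place of cells, and, chosen after seeing the data, shared partner chains and leaving out cells with 4 chains from the count, or from count and search. Tables were computed with pandas 2.3.3 and numpy 2.4.6 under Python 3.11.15, intervals with scipy 1.17.1, and plots with matplotlib 3.10.9.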

Additional observations from a re-analysis of the deposited data

How the results depend on the processing

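Over 18 results, 88 alternatives were run, of which 83 stayed within the interval of the value reported and 5 moved out of it. Counted once per clonotype instead of per cell, the dual alpha share of p53 KO cells with an alpha chain was 18.5%. With cells of 2 alpha and 2 beta chains left out of the count but still searched, the p53 KO share with a chain known from another clone was 33.3% for alpha, within the interval, and 7.69% for beta. With those cells also left out of the search it was 14.8% and 0%. With no shared partner chain allowed, that beta share was 4.55%. The numbers of cells and of UMIs per chain limit all values: the weaker chain often rested on 2 to 4 UMIs, and most clones on 1 cell. No paired analysis was possible because each genotype has 1 TCR library.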
